A study of Mus musculus with 8 samples.

Results

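The regions described here are the 1 Mb windows of mouse chromosomes 3, 12 and 13 (build mm10), the autosomes whose share of the listed cytosines was lower by the widest margin on day 1 of Etv2-induced reprogramming than on day 0. There were 393 such windows with at least 1 listed cytosine (157 on chromosome 3, 118 on chromosome 12 and 118 on chromosome 13) among 2413 on the 19 autosomes. GpC methylation had been read by NOMe-seq (nucleosome occupancy and methylome sequencing) in genomic DNA of mouse embryonic fibroblasts (MEFs). The 4 groups of 2 libraries were day 1 reprogrammed MEFs with the GpC methyltransferase M.CviPI (treated), day 1 MEFs without it (untreated), day 0 control MEFs with it and day 0 control MEFs without it. The labels do not say how Etv2 was delivered, which strain the cells came from, or whether the duplicates came from separate cultures, so p-values measure the spread between these libraries only, which may be technical. The chromosomes were picked by their day 1 to day 0 difference, so that difference is described without p-values, and counts of windows that a fit called are given beside the share called over all autosomes.

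M.CviPI adds methyl groups to GpC cytosines in DNA that is neither wrapped around a nucleosome nor covered by another protein, and bisulfite conversion then leaves the methylated cytosines readable as C. In treated libraries the methylated percentage of GpC calls is a measure of open chromatin, and in untreated libraries it is the background of the method and of the cells' own methylation. Etv2 is an ETS-family transcription factor that specifies endothelial and blood lineages, and fibroblasts that express it can be converted towards endothelial cells.

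Each listed cytosine is called a site below, each read over a site is a call, and the level is the percentage of calls that were methylated. Sites of at most 100 reads were kept. Whole libraries held 792322 and 810078 sites (day 1 treated), 1012656 and 991688 (day 1 untreated), 568331 and 559372 (day 0 treated) and 502588 and 439527 (day 0 untreated). No site had fewer than 3 reads, and 87.2% to 88.1% of the sites of a library had exactly 3. The bases around the sites could be read in the promoters of RefSeq genes. There, 7198 of 7198 site listings on chromosomes 3, 12 and 13 lay on the C of a GpC that was not followed by G, and 0 lay in GpCpG.

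The promoters of 6 genes show what such a listing looks like (RefSeq, GRCm38.p6, from 250 bases before to 50 bases after the annotated start, 300 bases each, 5′ to 3′ on the gene's strand). Capitals mark each GpC with a cytosine, on either strand, that was listed in at least 1 library. Cypt12 (chr3:17948194-17948493, + strand), which encodes a protein of the sperm head, and Dnajb14 (chr3:137867425-137867724, + strand), a chaperone partner of the endoplasmic reticulum, belong to the windows of chromosome 3 with the lowest and the highest ratio of site share. Eml1 (chr12:108410383-108410682, + strand), a microtubule-binding protein, and Flrt2 (chr12:95691976-95692275, + strand), a cell-surface adhesion protein, hold those places on chromosome 12. Sipa1l1 (chr12:82169766-82170065, + strand), a GTPase-activating protein, and Txndc5 (chr13:38528435-38528734, - strand), a disulfide isomerase, were added after their values were seen, because their promoters had the most treated calls on both days on chromosomes 12 and 13.
Cypt12: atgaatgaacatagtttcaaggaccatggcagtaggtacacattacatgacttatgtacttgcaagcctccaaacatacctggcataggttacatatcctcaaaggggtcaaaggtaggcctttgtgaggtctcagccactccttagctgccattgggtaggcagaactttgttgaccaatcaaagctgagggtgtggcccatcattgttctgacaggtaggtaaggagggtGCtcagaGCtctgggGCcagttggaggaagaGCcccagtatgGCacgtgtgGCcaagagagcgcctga
Dnajb14: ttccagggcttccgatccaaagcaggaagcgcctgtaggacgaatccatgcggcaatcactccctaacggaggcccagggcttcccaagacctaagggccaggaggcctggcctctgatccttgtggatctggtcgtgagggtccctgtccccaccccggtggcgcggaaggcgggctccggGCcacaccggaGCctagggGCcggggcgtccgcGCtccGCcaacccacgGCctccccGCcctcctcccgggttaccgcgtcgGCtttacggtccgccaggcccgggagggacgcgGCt
Eml1: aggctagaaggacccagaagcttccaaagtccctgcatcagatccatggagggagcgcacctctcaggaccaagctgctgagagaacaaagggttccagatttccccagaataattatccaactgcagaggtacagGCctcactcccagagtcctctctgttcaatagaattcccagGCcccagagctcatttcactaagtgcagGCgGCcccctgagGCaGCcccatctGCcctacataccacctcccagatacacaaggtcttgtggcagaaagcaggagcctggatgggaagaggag
Flrt2: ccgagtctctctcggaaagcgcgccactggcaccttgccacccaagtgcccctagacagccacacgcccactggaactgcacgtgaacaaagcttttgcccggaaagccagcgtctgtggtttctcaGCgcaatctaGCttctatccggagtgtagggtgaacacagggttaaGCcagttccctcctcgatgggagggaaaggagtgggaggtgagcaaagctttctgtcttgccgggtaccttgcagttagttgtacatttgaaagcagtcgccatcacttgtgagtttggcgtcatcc
Sipa1l1: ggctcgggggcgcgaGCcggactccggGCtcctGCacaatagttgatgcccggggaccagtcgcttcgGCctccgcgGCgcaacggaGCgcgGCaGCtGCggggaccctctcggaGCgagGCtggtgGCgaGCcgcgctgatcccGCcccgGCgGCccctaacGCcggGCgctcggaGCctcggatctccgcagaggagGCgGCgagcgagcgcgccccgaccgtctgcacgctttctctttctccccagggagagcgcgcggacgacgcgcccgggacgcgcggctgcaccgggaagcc
Txndc5: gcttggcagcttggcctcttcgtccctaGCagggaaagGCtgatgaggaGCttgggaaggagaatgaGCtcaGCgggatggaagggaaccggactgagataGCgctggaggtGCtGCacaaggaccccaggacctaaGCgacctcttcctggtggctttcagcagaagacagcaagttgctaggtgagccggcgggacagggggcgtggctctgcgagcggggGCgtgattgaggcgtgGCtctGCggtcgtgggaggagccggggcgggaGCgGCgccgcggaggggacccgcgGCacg
The Cypt12 promoter has 19 GpC dinucleotides, of which 6 were listed, all of them in 1 day 0 treated library. Sipa1l1 had 21 of its 49 GpC listed and Txndc5 15 of 36.

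The share of autosomal sites on chromosome 3 was lower in each day 1 library than in any day 0 library. Chromosome 3 held 3.66% and 3.70% of the autosomal sites in the day 1 treated libraries and 3.62% and 3.63% in the day 1 untreated ones, against 6.84% and 7.03% in the day 0 treated and 6.64% and 6.77% in the day 0 untreated libraries. The replicates of a group lay far closer to each other than the days did.
Chromosome 12 held 2.53% and 2.55% (day 1 treated) and 2.54% and 2.65% (day 1 untreated), against 3.95% and 3.85% (day 0 treated) and 3.87% and 3.94% (day 0 untreated). Chromosome 13 held 2.70% and 2.75% (day 1 treated) and 2.71% and 2.76% (day 1 untreated), against 3.90% and 3.94% (day 0 treated) and 3.63% and 3.94% (day 0 untreated). On none of the 3 chromosomes did the libraries of the 2 days overlap. The same order without overlap was found on chromosomes 4, 5, 6, 8, 9 and 15, at log2 ratios as small as -0.05 and -0.04 on chromosomes 5 and 6. Lack of overlap was thus not particular to chromosomes 3, 12 and 13. The log2 ratios of day 1 to day 0 were -0.92, -0.62 and -0.52 for chromosomes 3, 12 and 13 in the treated libraries and -0.89, -0.59 and -0.47 in the untreated libraries. The next autosome, chromosome 15, had a log2 ratio of -0.26 over all libraries, against -0.50 for chromosome 13, and the median of the other 16 autosomes was 0.14.

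**Figure D1:**
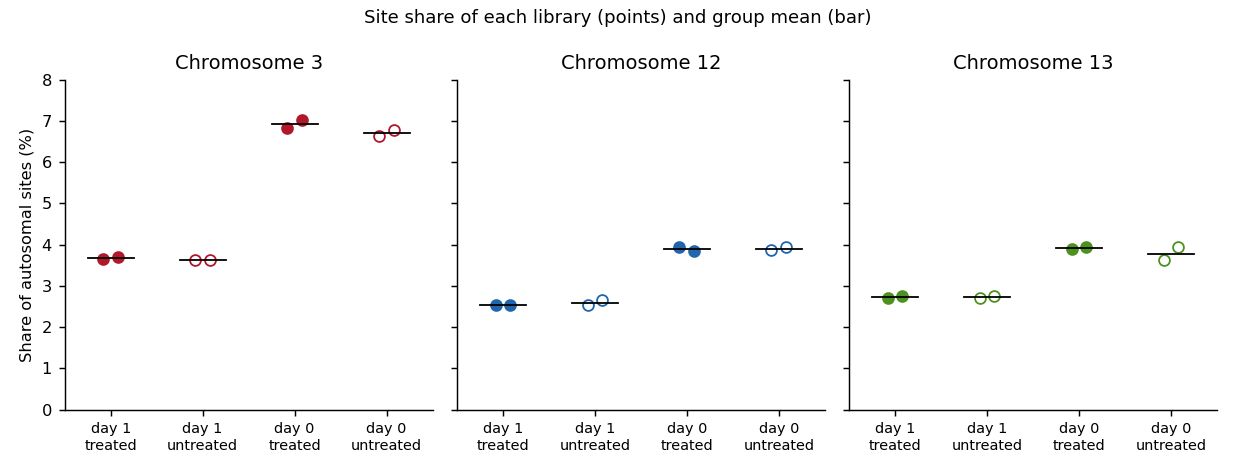
Share of autosomal sites (%, y axis) on chromosomes 3, 12 and 13 in each library (points; filled, treated; open, untreated) with the mean of the 2 libraries of each group (bars). The day 1 libraries sit at 3.62% to 3.70% on chromosome 3, against 6.64% to 7.03% on day 0, and the 2 days do not overlap on chromosomes 12 and 13 either. Chromosomes 4, 5, 6, 8, 9 and 15, not drawn here, also had all day 1 libraries below all day 0 libraries.

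A share is relative to all autosomes, so a lower share on these chromosomes and a higher share on others cannot be told apart. The number of sites listed per 1 Mb window, relative to the autosomal average of the same library, gives the day 0 starting point. Chromosome 3 stood at 0.561 ± 0.00520 on day 1, against 1.05 ± 0.0251 on day 0 (SD, n = 4 libraries each). Chromosome 12 stood at 0.525 ± 0.0109 on day 1, against 0.798 ± 0.0103 on day 0, and chromosome 13 at 0.558 ± 0.00602, against 0.788 ± 0.0309. On day 1 all 3 chromosomes lay between 0.525 and 0.561, while on day 0 chromosome 3 was near the autosomal average and chromosomes 12 and 13 were already below it. In absolute numbers, the 3 chromosomes together gave 69901 and 72362 sites in the day 1 treated libraries, against 82668 and 82071 in the day 0 treated libraries, although the day 1 libraries listed more sites in all. The untreated libraries gave 89232 and 88928 on day 1, against 70387 and 63775 on day 0.

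**Figure D2:**
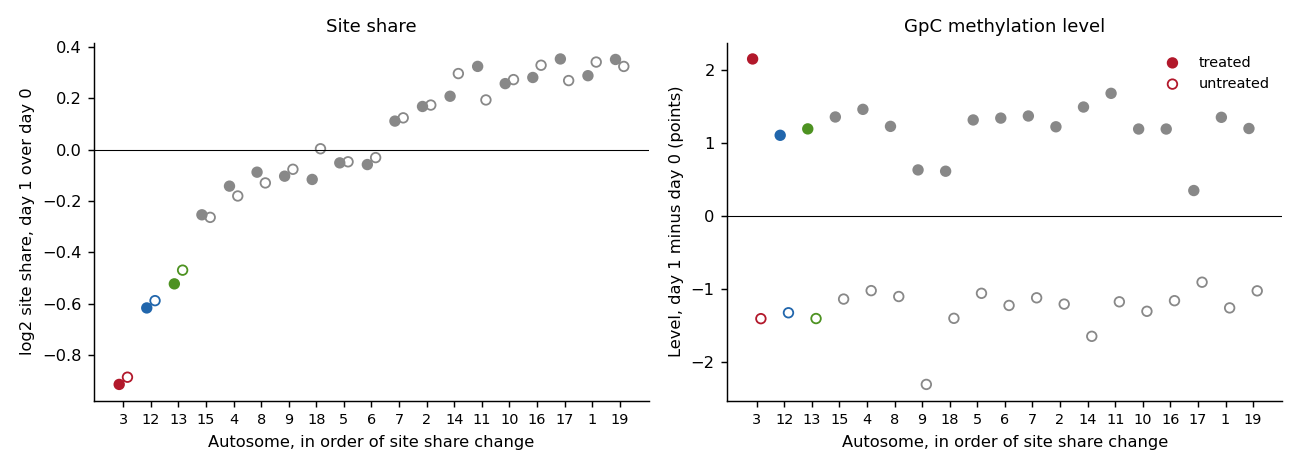
Change between day 1 and day 0 on each of the 19 autosomes, ordered by the change of site share: log2 ratio of site share (left) and difference of the GpC methylation level in percentage points (right), for treated (filled) and untreated (open) libraries. Chromosomes 3 (red), 12 (blue) and 13 (green) stand at the low end of the share axis, and chromosome 3 has the highest treated level difference, 2.15 points.

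The lower share ran along the whole length of chromosome 3 and along most of chromosomes 12 and 13. Of the 393 windows, 378 had a mean of at least 50 sites per library (156, 109 and 113 on chromosomes 3, 12 and 13) and 15 did not. The ratio was below 1 in 156 of 156 windows on chromosome 3, 108 of 109 on chromosome 12 and 108 of 113 on chromosome 13. From the 10th to the 90th percentile of windows the log2 ratio spanned -1.13 to -0.63 on chromosome 3 (median -0.89), -0.83 to -0.19 on chromosome 12 (median -0.53) and -0.69 to -0.18 on chromosome 13 (median -0.45). The 4 day 1 libraries all lay below the 4 day 0 libraries in 237 of the 378 windows (129, 51 and 57 on the 3 chromosomes), beside 14.4% of the 2290 autosomal windows with enough sites. In 0 of the 378 windows did all 4 day 1 libraries lie above. An edgeR quasi-likelihood fit across those 2290 windows (Benjamini-Hochberg adjusted p under 0.05) called 278 of the 378 lower on day 1 and 0 higher, beside 17% of all windows called lower and 24.1% called higher. These counts follow from how the chromosomes were chosen.

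**Figure D3:**
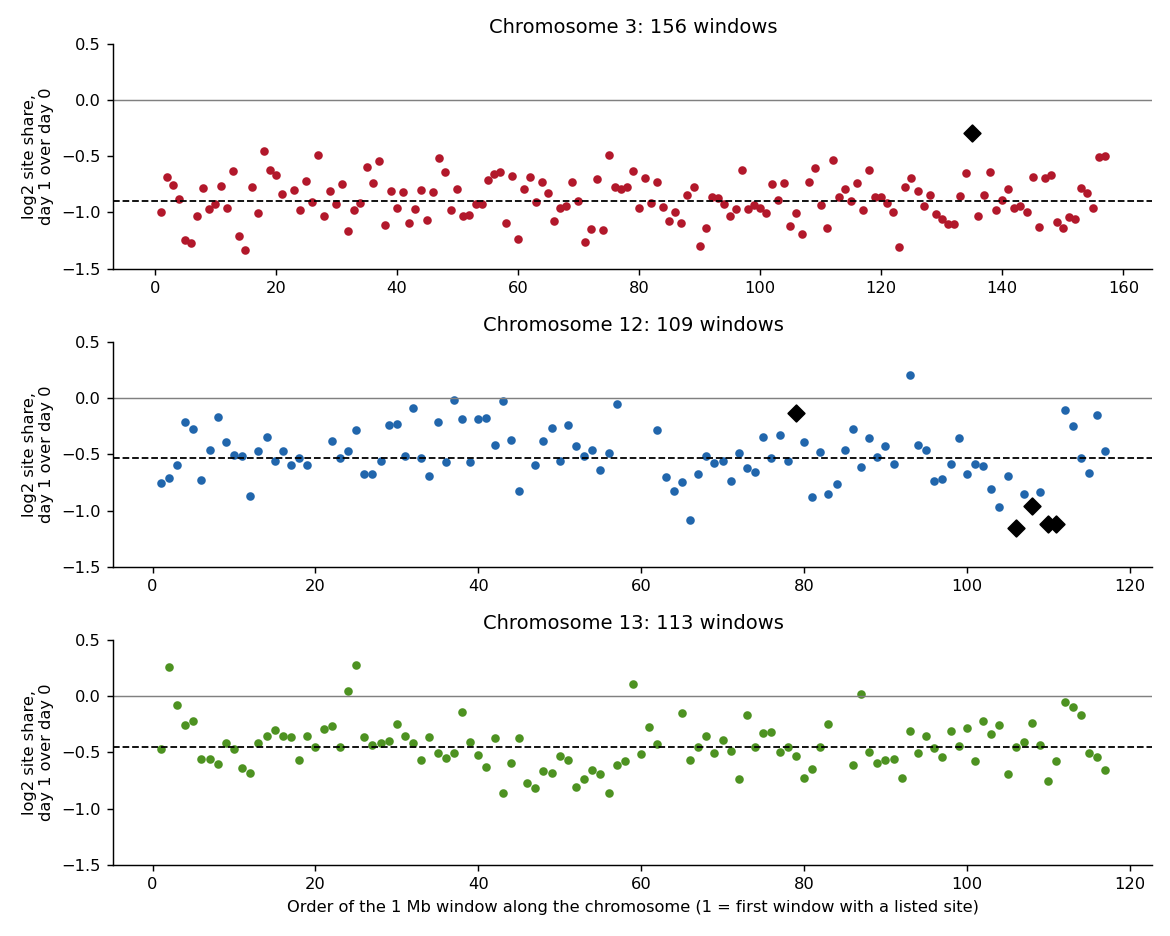
Log2 ratio of site share, day 1 over day 0 (y axis), for each 1 Mb window with a mean of at least 50 sites, in order along the chromosome (x axis); dashed lines are chromosome medians and diamonds are windows that an edgeR fit called different from their own chromosome. All 156 points of chromosome 3 lie below 0, and the 4 windows of chromosome 12 called lower lie close together near its far end.

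Most windows of a chromosome moved in the same direction. Between 2 libraries of different days, the SD over windows of the log2 ratio of site counts was 0.330 to 0.450 on chromosome 3, against 0.305 to 0.433 between replicates. On chromosome 12 it was 0.396 to 0.462 across days and 0.383 to 0.456 between replicates, and on chromosome 13 it was 0.365 to 0.419 and 0.361 to 0.431. Windows thus scattered across days about as widely as they did between replicates. Each pair carries the scatter of single libraries, so this does not decide how even the change was. On the means of 4 libraries per day, the SD over windows was 0.195, 0.252 and 0.214 on chromosomes 3, 12 and 13. The edgeR fit within chromosomes, given next, had median standard errors of 0.163, 0.170 and 0.165 there. When the library size in the edgeR fit was replaced by the site total of the window's own chromosome, 6 of the 378 windows were called (2 higher and 4 lower than their chromosome), beside 6.07% of the 2290 windows (3.1% higher and 2.97% lower). By chromosome, 1 of 156 was called on chromosome 3, 5 of 109 on chromosome 12 and 0 of 113 on chromosome 13 (12 with an unadjusted p under 0.05). Over the 3 chromosomes, limma called 3 and DESeq2 called 5, beside 45 and 129 of the 2290 windows. In windows of 2 Mb, 14 of 193 were called (3 of 79, 5 of 56 and 6 of 58 on chromosomes 3, 12 and 13), beside 199 of 1165 over all autosomes. The count was 3 when day 0 untreated replicate 2 was left out, and 3 when day 0 treated replicate 1 was.

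The 4 windows called lower than the rest of chromosome 12 lie between 108 and 114 Mb, hold 10 to 22 protein-coding genes each and include Eml1, Ppp2r5c (a regulatory subunit of protein phosphatase 2A), Tdrd9 (a germline RNA helicase) and Pacs2 (a sorting protein of the secretory pathway). The Eml1 window (chr12:108000001-109000000) held 55.2 and 44.5 sites per 100000 autosomal sites in the day 1 treated libraries and 54.7 and 59.9 in the day 1 untreated, against 118 and 110 in the day 0 treated and 107 and 143 in the day 0 untreated libraries. All 4 day 1 values lay below all 4 day 0 values, with a log2 ratio of -1.16. The Tdrd9 window (chr12:112000001-113000000) held 67.8, 73.3, 69.3 and 79.6 on day 1, against 146, 124, 184 and 176 on day 0 (both treated libraries, then both untreated), with a log2 ratio of -1.12. The Pacs2 window (chr12:113000001-114000000) had 31.8 ± 1.72 on day 1, against 69.2 ± 17.8 on day 0 (SD, n = 4 each). The Ppp2r5c window (chr12:110000001-111000000) had 53.2 ± 5.78, against 104 ± 10.1. In these windows the day 1 libraries held 44.9% to 51.3% of the day 0 share, where the median window of chromosome 12 had a log2 ratio of -0.53.

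The 2 windows called higher than their chromosome kept most of their share. The Dnajb14 window (chr3:137000001-138000000) held 25.8, 27.1, 28.4 and 22.6 sites per 100000 on day 1, against 31.3, 38.8, 24.3 and 33.1 on day 0 (both treated libraries, then both untreated). The 2 days overlapped, and the log2 ratio was -0.30, the highest on chromosome 3. The Smoc1 window of chromosome 12 (chr12:81000001-82000000) held 33.7 ± 6.75 on day 1, against 36.9 ± 4.84 on day 0 (SD, n = 4 each); Smoc1 encodes a secreted matrix protein that binds calcium.

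At the low end of chromosome 3 stood the window of Cypt12 (chr3:17000001-18000000, log2 ratio -1.33), followed by those of Ndst4, an enzyme that modifies heparan sulfate (-1.31), and Ivl, which encodes involucrin of the outer skin layer (-1.30). The Cypt12 window held 7.25, 8.46, 8.16 and 7.11 sites per 100000 on day 1, against 14.6, 23.5, 16.9 and 23.0 on day 0. Its high end, after the Dnajb14 window, held the window of Hltf, a helicase of the SWI/SNF type (-0.45). On chromosome 12 the window of Flrt2 (chr12:95000001-96000000) was the 1 window above 0, with 10.3 ± 0.860 sites per 100000 on day 1, against 8.89 ± 3.38 on day 0. Stxbp6, which encodes a protein that binds syntaxin, reaches into the third highest window of chromosome 12 (-0.03).
On chromosome 13 the lowest windows were those of Klhl3, a substrate adaptor of a cullin ubiquitin ligase (-0.86), Atxn1, the gene of ataxin-1 (-0.86), and Wnk2, a kinase (-0.81). The Klhl3 window (chr13:58000001-59000000) held 35.6, 45.8, 30.8 and 37.2 sites per 100000 on day 1, against 62.9, 69.7, 68.5 and 70.6 on day 0. The highest were those of Prl2a1, of the placental prolactin family (0.28), Akr1e1, an aldo-keto reductase (0.26), and Ctsq, a placental cathepsin (0.11). The Prl2a1 window (chr13:27000001-28000000) held 9.03, 11.2, 10.7 and 6.20 on day 1, against 5.33, 8.85, 9.04 and 7.35 on day 0. The days overlapped in the Prl2a1 window and did not overlap in the Klhl3 window.

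In segments of 10 Mb, which average over these windows, no segment with enough sites kept its day 0 share on any of the 3 chromosomes. The end segments from 120 Mb on chromosomes 12 and 13 were left out. They had a mean of 1.25 and 14.75 sites per library and stood at 87.2% and 181% of their day 0 share. On chromosome 3 the 16 segments held 49.0% to 60.8% of their day 0 share, and all 4 day 1 libraries lay below the 4 day 0 libraries in 16 of 16, beside 28% of the 250 autosomal segments with as many sites (a mean of at least 50 per library and Mb). On chromosome 12 the 12 segments with enough sites held 56.1% to 78.4%, again without overlap in 12 of 12. The 2 lowest were its last ones, from 100 to 110 Mb (58.6%) and from 110 to 120 Mb (56.1%), and the highest was from 40 to 50 Mb (78.4%). On chromosome 13 the 12 such segments held 62.3% to 79.4%, without overlap in 12 of 12, with the lowest from 50 to 60 Mb and the highest from 20 to 30 Mb. Over windows, the log2 ratio had a Pearson correlation of -0.33 with the number of protein-coding genes on chromosome 12 (109 windows), -0.23 on chromosome 3 (156 windows) and 0.01 on chromosome 13 (113 windows). The Spearman correlations were -0.35, -0.25 and -0.12. Windows share their libraries, so these values are descriptions.

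The enzyme did not enter the choice of the chromosomes, and its effect on the site share could be tested. Averaged over the days, treated minus untreated was 0.14 percentage points of the autosomal sites on chromosome 3 (higher with the enzyme on both days), -0.03 on chromosome 12 and 0.06 on chromosome 13. The two-sided exact permutation test within days gave p = 0.0556 for chromosome 3, the smallest that 36 arrangements allow, and p = 0.389 and 0.833 for chromosomes 12 and 13 (adjusted over 19 autosomes, 0.211, 0.672 and 0.880). The difference between the log2 day ratios with and without the enzyme was -0.03, -0.03 and -0.05 on chromosomes 3, 12 and 13 (exact permutation p = 0.667, 0.778 and 0.833, n = 2 libraries per group). Days were exchanged within each enzyme group, and many exchanges remove the large day difference from 1 group only. This p therefore could not be small and does not decide whether the 2 ratios differed. Per window, edgeR called 0 of the 378 for treated against untreated (27 with an unadjusted p under 0.05), beside 0% of all windows. There limma called 0 and DESeq2 1, beside 8 of 2290 with DESeq2. For the difference of the day effects edgeR called 0 of the 378 (31 with an unadjusted p under 0.05), beside 0.0437%. There limma called 0 and DESeq2 0, beside 21 of 2290 with DESeq2. DESeq2 gave no adjusted p for 2175 and 1687 of the 2290 windows in these 2 comparisons, so its counts leave most windows unassessed. The median standard error of a window's log2 ratio was 0.167 for treated against untreated, so enzyme effects of that order in single windows were not detectable at this depth.

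Reads per site have a lower bound of 3, at which most sites sit. Chromosome 3 had 3.16 ± 0.00574 reads per site on day 1, against 3.17 ± 0.00716 on day 0 (SD, n = 4 each). Chromosome 12 had 3.12 ± 0.00393, against 3.14 ± 0.00835, and chromosome 13 had 3.21 ± 0.0131, against 3.29 ± 0.0138. The means were lower on day 1 on all 3 chromosomes, as on the other 16 autosomes. There, day 1 minus day 0 ran from -0.857 to -0.00268 (median -0.0395), against -0.0106, -0.0186 and -0.0736 on chromosomes 3, 12 and 13. For chromosome 12 the sign depended on the limit of 100 reads, since day 1 minus day 0 was 0.00409 with no upper limit, and for chromosome 3 it was -0.0263 with at most 20 reads. The percentage of sites with more than 3 reads was 9.14 ± 0.330 on day 1, against 10.9 ± 0.483 on day 0, on chromosome 3, 8.13 ± 0.494 against 9.25 ± 0.382 on chromosome 12, and 9.79 ± 0.603 against 11.6 ± 0.272 on chromosome 13. Treated minus untreated reads per site were -0.00243, -0.00713 and 0.00417 on chromosomes 3, 12 and 13 (two-sided exact permutation p = 0.667, 0.167 and 0.722; adjusted over 19 autosomes, 0.792, 0.528 and 0.807).
Sites came in clusters, taken as runs of sites at most 150 bp apart. Chromosome 3 had 3.34 ± 0.0874 sites per cluster on day 1, against 3.34 ± 0.0310 on day 0, and its share of clusters was 3.98% ± 0.0373, against 7.15% ± 0.0979. Clusters were smaller with the enzyme, by 0.0875, 0.132 and 0.116 sites on chromosomes 3, 12 and 13 (exact permutation p = 0.0556 each, the smallest possible, adjusted 0.0621). This held on every autosome, where treated minus untreated ran from -0.195 on chromosome 11 to -0.0741 on chromosome 16.
Few sites were seen again in the replicate of the same group. On chromosome 3 the replicates shared 423 sites in the day 1 treated libraries (1.47% and 1.42% of each), against 958 in the day 0 treated ones (2.49% and 2.46%), and 117 sites were listed in all 8 libraries. Chromosome 12 had 28 sites in all 8 libraries and chromosome 13 had 155.

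GpC methylation was higher on day 1 with the enzyme and lower on day 1 without it. In the treated libraries chromosome 3 had a level of 30.5% and 30.7% on day 1, against 28.8% and 28.1% on day 0, a difference of 2.15 points. Chromosome 12 had 29.9% and 29.7%, against 28.9% and 28.5% (1.10 points), and chromosome 13 had 30.1% and 30.0%, against 28.6% and 29.1% (1.19 points). Both day 1 treated libraries were higher than both day 0 ones on each of the 3 chromosomes. The mean treated level was also higher on day 1 on the other 16 autosomes, by 0.345 to 1.68 points (median 1.27). On chromosome 17 the treated libraries of the 2 days overlapped. Chromosome 3 ranked 1 of 19 for this difference, chromosome 13 ranked 13 and chromosome 12 ranked 16, so the order of the level differences was not that of the shares. Set against the median autosome outside the 3 chromosomes, the treated level of chromosome 3 was 0.553 and 0.706 points above it on day 1, against 0.0360 above and 0.695 below on day 0. The 2 days did not overlap for chromosome 3, and they overlapped for chromosomes 12 and 13. Set against that median, they did not overlap for chromosomes 6 and 11 (higher on day 1) and 9, 17 and 18 (lower on day 1) either.
In the untreated libraries chromosome 3 had 0.927% and 0.991% on day 1, against 2.40% and 2.33% on day 0. Chromosome 12 had 1.04% and 0.992%, against 2.34% and 2.35%, and chromosome 13 had 0.939% and 1.03%, against 2.45% and 2.34%. The untreated level was lower on day 1 by 1.41, 1.33 and 1.41 points, within the range of the other autosomes (0.911 to 2.31 points lower). Set against the same median, the untreated levels of chromosomes 3, 12 and 13 were 0.0583, 0.00283 and 0.0325 points below it on day 1, against 0.155, 0.129 and 0.179 above it on day 0. The days did not overlap on any of them. This was not particular to them, since chromosomes 9, 10, 14 and 18 had the same order without overlap. The day difference with the enzyme was 3.56, 2.43 and 2.60 points above that without it on chromosomes 3, 12 and 13 (exact permutation p = 0.0556 each, the smallest possible, adjusted 0.0586). The other 16 autosomes had 1.26 to 3.14 points, with the same p on each of them but chromosome 17. This test exchanges days, so its p restates that the days separated in opposite directions in the 2 enzyme groups.
Treated minus untreated, averaged over the days, was 27.9 points on chromosome 3, 27.6 on chromosome 12 and 27.7 on chromosome 13 (exact permutation p = 0.0556 each, adjusted 0.0556).

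Per window, the treated level difference scattered on both sides of 0. Of 380 windows with enough calls (a mean of 150 per library and 20 in each), 262 had a higher treated level on day 1 and 118 a lower one (114 of 156 higher on chromosome 3, 75 of 110 on chromosome 12 and 73 of 114 on chromosome 13), beside 1602 higher and 694 lower of 2296 autosomal windows. The median difference was 2.14, 1.21 and 1.32 points on chromosomes 3, 12 and 13, and 1.39 over all autosomes. limma on log2((methylated + 1)/(unmethylated + 1)) called 0 of the 380 (1 with an unadjusted p under 0.05), beside 0% of all windows. Its median standard error, 0.420 on the log2 odds scale, was estimated over treated and untreated libraries together. With the 4 treated libraries fitted alone, limma called 0 of the 380 (38 with an unadjusted p under 0.05), beside 6 of 2296. edgeR called 0 of the 380 (25 with an unadjusted p under 0.05), beside 1 of 2296. The largest higher values were in the windows of Tmem161b, a membrane protein, on chromosome 13 (34.6% and 37.3% on day 1, against 24.4% and 13.04% on day 0), and Pcdh10, a protocadherin, on chromosome 3 (35.4% and 39.7%, against 20.4% and 27.6%). The largest lower ones with a gene were those of Pkia, an inhibitor of protein kinase A (23.4% and 26.4%, against 38.2% and 32.6%), and Sis, the intestinal sucrase-isomaltase (30.4% and 27.2%, against 38.6% and 37.8%), both on chromosome 3. In these 4 windows the days did not overlap, and each rested on 377 to 798 treated calls per day. They were picked as the largest differences, so lack of overlap was likely in advance. The untreated level was called lower on day 1 in 261 of the 380 windows, beside 73% of all windows. With each library centred on its median window the call count was 3, beside 26 of 2296 windows.

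From window to window, the treated level difference showed little correlation with the change of site share. From the 10th to the 90th percentile the level differences spanned -0.18 to 0.43 log2 odds, and 0 of the 380 windows were called. The median standard error of 0.420 pools treated and untreated libraries, so it is not the error of the treated level alone. A relation could be hidden by noise in single windows, so the correlations below do not decide whether the level followed the share. Over the 378 windows the Pearson correlation between the log2 ratio of site share and the treated level difference was -0.05 (Spearman -0.07), and with each chromosome centred on its mean it was 0.01 (0.01). Within chromosomes 3, 12 and 13 it was 0.10, -0.03 and -0.07. With the untreated level difference the correlation was -0.15, or -0.22 with centring. These are descriptions over windows that share their libraries. The 4 called windows at the far end of chromosome 12 had treated levels of 30.5% to 31.7% on day 1, against 27.7% to 30.9% on day 0.
In 10 Mb segments the treated level was higher on day 1 in 16 of 16 on chromosome 3 (by 0.223 to 4.40 points), 10 of 12 on chromosome 12 (-0.471 to 2.65 points) and 11 of 12 on chromosome 13 (-0.456 to 5.30 points). The untreated level was lower in 16 of 16, 12 of 12 and 12 of 12 segments.

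**Figure D4:**
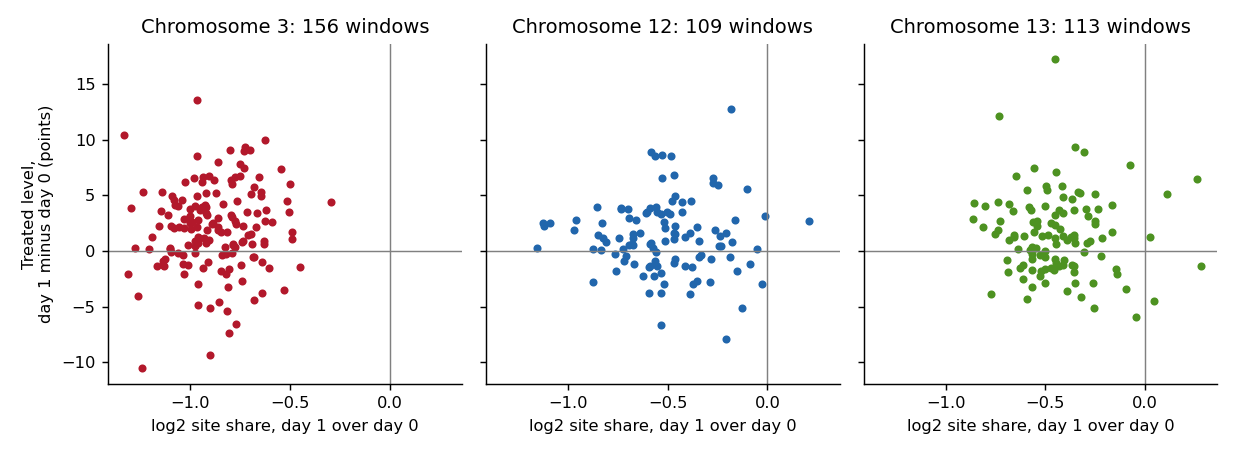
Difference of the treated level, day 1 minus day 0 in percentage points (y axis), against the log2 ratio of site share, day 1 over day 0 (x axis), for each 1 Mb window. The clouds show little slope (Pearson correlation 0.10, -0.03 and -0.07 on chromosomes 3, 12 and 13), and most points lie above 0. No single window was called for its treated level difference, so a relation could be hidden by noise.

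Genes of 4 lists were followed over their loci (gene bodies plus 1000 bp beyond each end), with site shares summed over all 4 libraries of a day. A locus was lower on day 1 for 1844 of the 2319 protein-coding genes with a site on the 3 chromosomes (79.5%), beside 50.8% on all autosomes. Of the endothelial and blood list 21 of 23 members were lower and 2 higher, of the fibroblast and matrix list 20 of 26 lower and 6 higher, of the chromatin list 10 of 11 lower and 1 higher, and of the other transcription factors 17 of 18 lower and 1 higher. These counts carry no test.
Summed over the endothelial and blood members, the share was 314 ± 23.5 sites per 1000000 on day 1, against 647 ± 114 on day 0 (SD, n = 4 each). The fibroblast and matrix members had 516 ± 38.8, against 736 ± 106, the chromatin members 319 ± 4.14, against 575 ± 83.8, and the other transcription factors 166 ± 20.7, against 370 ± 98.7.
Lef1, a transcription factor of Wnt signalling on chromosome 3, had 160 sites in the 4 day 1 libraries, against 272 on day 0. Csf1, the macrophage growth factor, had 48 against 86. Akt1, a growth-factor kinase on chromosome 12, had 60 against 122, and Foxc1, a forkhead factor of vessel development on chromosome 13, had 6 against 36. These 4 loci had fewer sites on day 1 although the day 1 libraries listed more sites in all. Itga2, a collagen-binding integrin subunit on chromosome 13, went the other way, with 152 against 46, and so did Vcan, the matrix proteoglycan versican, with 69 against 24. Sox2 and Sox11, factors of stem and neural cells, had 0 sites on day 1, against 10 and 22 on day 0. At such counts a difference between single loci can come from a few clusters.

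Levels were read at the loci with at least 60 treated calls on each day. Dnmt3a, a DNA methyltransferase on chromosome 12, had a treated level of 44.4% and 33.3% on day 1, against 28.1% and 35.7% on day 0. Jarid2, a Polycomb partner on chromosome 13, had 42.5% and 48.0%, against 54.3% and 41.0%. Ptch1, the Hedgehog receptor, had 35.6% and 35.6%, against 27.7% and 45.5%. The days overlapped at each of these 3 loci.
Egf, the epidermal growth factor, had 37.3% and 28.2%, against 20.3% and 23.8%, and Baz1a, a chromatin remodeller, had 34.9% and 28.04%, against 26.3% and 17.8%. Itga1, an integrin subunit, had 25.4% and 26.1%, against 43.8% and 44.1%. At Egf, Baz1a and Itga1 the days did not overlap. With 2 libraries against 2, the smallest p of an exact permutation test is 0.33, so separation at single loci is common without any difference. Hltf had 0% and 15.2%, against 38.9% and 31.7%, on 84 calls on day 1, against 78 on day 0. Among the readable members the level was higher on day 1 in 3 of 9 of the endothelial and blood list, 5 of 9 of the fibroblast and matrix list, 5 of 7 of the chromatin list and 1 of 3 of the other transcription factors. Over all protein-coding loci with that many calls and a level in each treated library it was higher in 439 of 777 on the 3 chromosomes and in 4012 of 7073 on all autosomes.

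Promoters held a smaller share of the listed sites on day 1, on these chromosomes and elsewhere. The 4441 RefSeq promoters of chromosomes 3, 12 and 13 held 794 ± 43.5 sites per 1000000 autosomal sites on day 1, against 2179 ± 553 on day 0 (SD, n = 4 each), a log2 ratio of -1.46. In numbers, these were 2856 sites in the 4 day 1 libraries, against 4385 in the 4 day 0 libraries. The 26955 promoters of the other 15 autosomes in the promoter table had a log2 ratio of -0.68, with 31165 sites on day 1, against 27854 on day 0. Counted per 1000000 sites of their own chromosomes, the values were 8867 ± 470 on day 1, against 14994 ± 3999 on day 0, on chromosomes 3, 12 and 13, and 9797 ± 565, against 16720 ± 4050, on the other 15. The own-chromosome log2 ratios were -0.76 on chromosomes 3, 12 and 13 and -0.77 on the other 15 autosomes. Relative to the chromosome they lie on, the promoters of the 2 sets had nearly the same day ratio.
Split by GpC content, promoters with over 25 GpC had an own-chromosome log2 ratio of -1.09, against -1.16 on the other 15 autosomes, those with 16 to 25 GpC had -0.40, against -0.31, and those with at most 15 GpC had 0.29, against 0.57. On chromosomes 3, 12 and 13 the days overlapped in the lower 2 classes and not in the promoters with over 25 GpC. Treated levels at the promoters of chromosomes 3, 12 and 13 were 46.5% and 45.6% on day 1, against 47.6% and 48.8% on day 0, above the chromosome levels on both days. By chromosome the days took no common order. Promoters of chromosome 3 had 49.4% and 41.0% on day 1, against 50.2% and 50.4% on day 0, those of chromosome 12 had 55.4% and 50.4%, against 47.6% and 45.5%, and those of chromosome 13 had 36.7% and 46.9%, against 43.7% and 50%. The days did not overlap on chromosomes 3 and 12, where the order was opposite, and they overlapped on chromosome 13. The promoters of the other 15 autosomes had 44.2% and 45.1%, against 50.4% and 51.0%.
At the printed promoters single libraries gave the values. Sipa1l1 had 4 methylated of 21 calls in 1 day 1 treated library (19.05%, 95% Wilson interval 7.67% to 40.0%), against 18 of 46 in 1 day 0 treated library (39.1%, 26.4% to 53.5%). Txndc5 had 7 of 27 calls (25.9%, 13.2% to 44.7%) on day 1, against 17 of 18 (94.4%, 74.2% to 99.0%) on day 0. Each value rests on 1 library, and the intervals cover counting error only, since neighbouring sites are read from the same molecules. Eml1 had 2 of 21 calls in 1 day 1 treated library (9.52%, 2.65% to 28.9%) and none on day 0, and Cypt12 had 3 of 18 in 1 day 0 treated library (16.7%, 5.84% to 39.2%) and none on day 1. Flrt2 had 0 of 9 treated calls on day 0, which allows a level of up to 33.3%, and Dnajb14 was listed in untreated libraries only. For the lowest and highest windows of chromosome 13, the Klhl3 promoter had 0 listed sites and the Prl2a1 promoter 3, in 1 day 1 untreated library.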

How the data were processed

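NOMe-seq libraries were analysed from 8 tables with 1 line per cytosine. In the deposited tables the authors gave each cytosine a fraction, the methylated share of its reads rounded to 2 decimals, and a count of its reads. The units were read from the values, and the fraction times the count was whole within rounding at 100% of sites. The build is mm10 per the submitters' processing notes; neither aligner nor caller is stated (not given in the sources used here). These files hold 0 other columns of per-sample values. The chromosomes, gene lists and tests were chosen with earlier results of these data known.

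Sites over 100 reads were left out, sites were summed per 1 Mb window, and methylated calls were the rounded product of fraction and count. Site counts were fitted with edgeR 4.0.16 (quasi-likelihood, a mean per group, library size as the total of autosomal sites) on windows with a mean of at least 50 sites, and levels with limma 3.58.1 in R 4.3.3, with Benjamini-Hochberg adjustment at 0.05. Shares, reads per site and levels of whole chromosomes were compared with exact permutation tests within days (Python 3.11.15, scipy 1.17.1). The fits were checked on simulated data. The genes named are those with the most sites in the 3 lowest and 3 highest windows of share ratio, the 2 largest level differences each way, and the members of 4 lists. Window genes and promoter sequences come from RefSeq tables of GRCm38.p6, the same assembly as mm10. DESeq2 1.42.0, limma, TMM scaling, other windows and filters, and leaving out each library were tried as alternatives.

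Total sites per library ran from 439527 to 1012656. Most sites have 3 reads, so single sites carry little information, and values were pooled over windows or chromosomes.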

Additional observations from a re-analysis of the deposited data

Results flagged for a closer look

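On each of chromosomes 3, 12 and 13 the level differed between the days in opposite directions with and without the enzyme. On chromosome 3 both day 1 treated libraries were above both day 0 treated libraries, and both day 1 untreated libraries were below both day 0 untreated libraries. The day difference with the enzyme lay 3.56 points above that without it. On chromosome 12 it lay 2.43 points above, and on chromosome 13 it lay 2.60 points above. A two-sided exact permutation test, with days exchanged separately in each enzyme group, gave p = 0.0556 each, the smallest possible with 2 libraries per group, so the threshold of 0.05 could not be reached. Such a test gives this p whenever the days separate in opposite directions in the 2 enzyme groups. It therefore adds nothing to that separation and is no test of the difference alone. The value of chromosome 12 lies inside the range of the other 16 autosomes (1.26 to 3.14 points), as does that of chromosome 13, and that of chromosome 3 lies above it.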

How the results depend on the processing

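The site share, whose lower value on day 1 chose the chromosomes, had the same direction on chromosomes 3, 12 and 13 under every alternative run. Under TMM scaling edgeR called 300 of 378 windows lower and 0 higher (403 higher and 475 lower over all autosomes, against 551 and 389). The log2 ratio of site share was -0.997, -0.69 and -0.58 on chromosomes 3, 12 and 13 with sites of at least 5 reads, -0.86 and -0.56 on chromosomes 3 and 12 by calls, and -0.85 on chromosome 3 by clusters (chosen after seeing the data). Leaving out 1 library gave -0.91 to -0.89, -0.62 to -0.60 and -0.52 to -0.49. Windows called for site count were 168 of the 2 Mb windows and 240 to 258 without 1 library. Windows called within their chromosome were 3 with limma, 14 of the 2 Mb windows and 3 to 7 without 1 library. For treated against untreated, DESeq2 called 1 window, the one of Tdrd9, and gave no adjusted p for 2175 of the 2290 autosomal windows. The treated level was called in 0 of 380 windows with the 4 treated libraries fitted alone, beside 6 of 2296. The untreated level was called in 167 of the 2 Mb windows, 153 windows with the 4 libraries fitted alone, 3 after centring and 221 to 254 without 1 library.

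The level difference with sites of at least 5 reads was 4.67 and 2.93 points on chromosomes 3 and 13 (treated) and -1.60, -1.02 and -1.16 on chromosomes 3, 12 and 13 (untreated). With every window weighted equally the untreated difference was -1.66, -1.58 and -1.61. The reads per site, day 1 minus day 0, were -0.0263 on chromosome 3 and -0.0442 on chromosome 13 with at most 20 reads, and 0.00409 on chromosome 12 with no upper limit, a change of sign. Treated minus untreated reads per site also changed sign, to 0.00185 on chromosome 3 with at most 20 reads and to 0.0137 and -0.0168 on chromosomes 12 and 13 with no upper limit. The cause was not tested.

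Replicate numbers did not pair the libraries: deviations of same-numbered libraries had correlations of -0.00139 to 0.0339 in site share. With a replicate block edgeR called 279 windows for the day, 8 within their chromosome and 0 for the enzyme, and 261 for the untreated level. Depth limits single sites, most of which had 3 reads.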
